A study of Rattus norvegicus with 6 samples.

Results

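The platelet-derived growth factor (PDGF) family was followed at the level of mRNA in normal and fibrotic rat liver through its 4 ligand genes, Pdgfa, Pdgfb, Pdgfc and Pdgfd, and its 2 receptor genes, Pdgfra and Pdgfrb. The members were the rows of the deposited expression table that carried one of these symbols, and they made up 6 of the 19616 genes listed, with 1 row for each symbol. Livers of male Sprague-Dawley rats had been sequenced after removal of ribosomal RNA, with 3 rats in each group. The FL group (rats FL2, FL5 and FL12) had received carbon tetrachloride (CCl4, which is toxic to hepatocytes) mixed with olive oil, 1 part of each by volume, by intraperitoneal injection of 2 mL per kg of body weight 2 times a week for 5 weeks. The CL group (rats CL5, CL6 and CL7) had received the same volume of olive oil. Whole liver was used, so each value is a mixture over all cells of the organ.

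PDGF ligands are secreted dimers that bind receptor tyrosine kinases at the cell surface, and a bound dimer brings a pair of receptor chains together so that they phosphorylate each other. In the liver the receptors are best known from hepatic stellate cells, where PDGF is a mitogen and a chemoattractant during fibrosis. Ligands A and B are cut to their active form inside the cell, whereas ligands C and D are secreted with an extra CUB domain that proteases outside the cell remove.

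Expression was deposited as FPKM, a number of fragments scaled to the length of the transcript and to the size of the library, so that levels of different genes can be set beside each other as far as their gene models are complete. The summed FPKM of a rat lay between 309425 and 340467 in the CL group and between 272110 and 309226 in the FL group. Read totals were not used here. Depth was compared through the most common value above 0 among the U6 genes of each rat. If it is the same number of fragments in every rat, depth relative to CL5, the deepest, was 0.656 to 0.840 in the others. How many fragments stand behind a value of 0.1 FPKM is not known from these values. The groups were compared with limma on log2(FPKM + 0.1) over the 14864 genes whose mean reached 0.1 FPKM, a filter that all 6 members passed, and the added 0.1 pulls the fold changes of weakly expressed genes towards 0. A gene was called higher at an adjusted p under 0.05 with a fold change of at least 2.

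Of the 6 PDGF genes, 5 were called higher in the FL group, namely Pdgfa, Pdgfb, Pdgfd, Pdgfra and Pdgfrb, and Pdgfc was not called. Among all genes tested, 9.29% were called higher and 0.935% were called lower. In the same 5 genes every FL rat lay above every CL rat, which held for 35.7% of all genes tested. The median log2 fold change was 1.41 over the 4 ligands and 1.35 over both receptors, against 0.29 over all genes. In whole liver, more or fewer cells of a type and more or less RNA per cell cannot be told apart, and this holds for every difference given here.

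**Figure D1:**
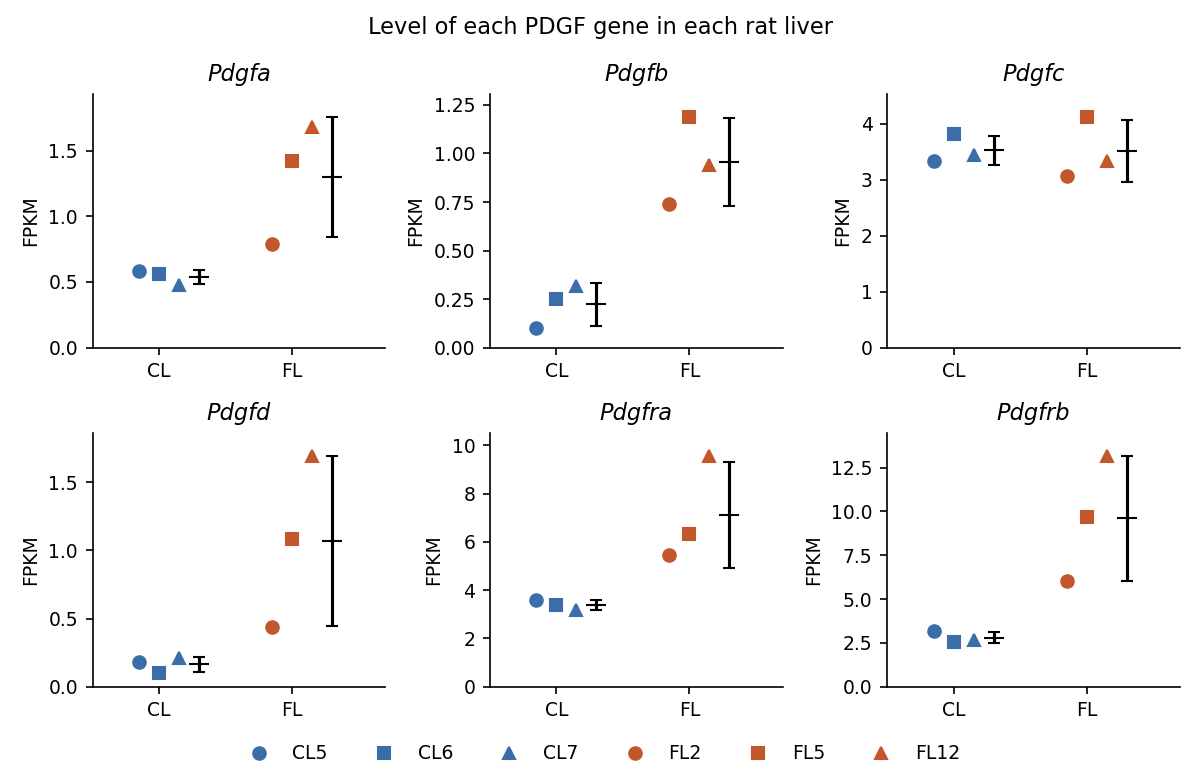
FPKM of the 6 PDGF genes in the livers of 3 CL and 3 FL rats, with 1 symbol for each rat and the group mean with its SD as a bar with whiskers; each panel has its own linear axis from 0. The groups are apart in every panel except that of Pdgfc, and FL2 (filled circle) is the lowest FL rat in all 6.

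Pdgfa encodes the A chain, whose homodimer binds receptor alpha. Its level was 0.58 FPKM in CL5, 0.56 in CL6 and 0.48 in CL7, against 0.79 in FL2, 1.42 in FL5 and 1.68 in FL12. The CL rats lay close together, FL2 stood a little above them and FL5 and FL12 well above, without overlap between the groups. The mean went from 0.540 ± 0.0529 to 1.30 ± 0.458 FPKM (SD, n = 3 rats each), a log2 fold change of 1.07 (standard error 0.30, limma's adjusted p = 0.0419). This call was lost in limma under 10 of 13 alternatives. Among them were those without CL5 (adjusted p = 0.0930), CL6 (0.0958), CL7 (0.135), FL5 (0.127) or FL12 (0.118).

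Pdgfb encodes the B chain, which binds both receptors and is the classical PDGF of platelets, macrophages and endothelium. It was listed at 0.10 FPKM in CL5, 0.25 in CL6 and 0.32 in CL7, against 0.74 in FL2, 1.19 in FL5 and 0.94 in FL12. All CL rats were low, CL5 lowest, and FL5 was the highest rat. The log2 fold change was 1.75 (standard error 0.36, limma's adjusted p = 0.0153), and without FL5 it was 1.60 with an adjusted p of 0.0623.

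Pdgfd encodes a CUB-domain ligand that binds receptor beta. It stood at 0.18 FPKM in CL5, 0.10 in CL6 and 0.21 in CL7, against 0.44 in FL2, 1.08 in FL5 and 1.69 in FL12. The FL rats were spread widely, FL12 having 10.3 times and FL2 2.69 times the CL mean, and the lowest FL rat still stood above the highest CL rat. The log2 fold change, 2.01 (standard error 0.46, limma's adjusted p = 0.0228), was the largest among the members at this pseudocount, but with a pseudocount of 1 it was 0.79, below 1.43 for Pdgfrb. Leaving out any one rat but FL2 raised limma's adjusted p above 0.05, to 0.0604 without CL5, 0.0697 without CL6, 0.0624 without CL7, 0.0802 without FL5 and 0.0651 without FL12.

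Pdgfc encodes the other CUB-domain ligand, which binds receptor alpha. Its level was 3.33 FPKM in CL5, 3.82 in CL6 and 3.44 in CL7, against 3.06 in FL2, 4.13 in FL5 and 3.33 in FL12. The groups overlapped fully, and both the lowest and the highest rat belonged to the FL group. The log2 fold change was -0.02 with a 95% confidence interval from -0.38 to 0.34 (limma's adjusted p = 0.946), so that the interval ended at a 1.27-fold increase and at 0.768 of the CL level. Scaling lowered it to -0.24 with medians and to -0.37 with quantile normalization (limma's adjusted p = 0.125), near the lower end of that interval.

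Pdgfra encodes receptor alpha, which binds ligands A, B and C. Its level was 3.61 FPKM in CL5, 3.39 in CL6 and 3.17 in CL7, against 5.44 in FL2, 6.33 in FL5 and 9.58 in FL12. The CL rats were close to one another, and FL12 stood apart from FL2 and FL5 at the upper end. The mean went from 3.39 ± 0.220 to 7.12 ± 2.18 FPKM (SD, n = 3 rats each). The log2 fold change was 1.01 (standard error 0.21, limma's adjusted p = 0.0162), close to the limit of 2-fold. The call was lost under 7 of 14 alternatives. Among them were those without CL6 (limma's adjusted p = 0.0506), without CL7 (0.0653), and without FL12, where the log2 fold change was 0.78. With a pseudocount of 1, median scaling and quantile normalization the log2 fold change was 0.86, 0.79 and 0.70. Without a filter limma's adjusted p was 0.0566.

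Pdgfrb encodes receptor beta, which binds ligands B and D and is widely used as a marker of stellate cells and pericytes. It stood at 3.15 FPKM in CL5, 2.55 in CL6 and 2.66 in CL7, against 6.0 in FL2, 9.70 in FL5 and 13.13 in FL12. Every FL rat had more than any CL rat, from 2.15 times the CL mean in FL2 to 4.71 times in FL12. The mean went from 2.79 ± 0.319 to 9.61 ± 3.57 FPKM (SD, n = 3 rats each), with a log2 fold change of 1.69 (standard error 0.26) and the smallest adjusted p among the members (limma, 0.00688). Pdgfrb was also the one member whose call held under all 14 alternative settings, with limma's adjusted p between 0.00199 and 0.0391.

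Because the median of all genes was itself 0.29 above 0 on the log2 scale, and became 0.08 after median scaling of the rats and -0.04 after quantile normalization, the log2 fold changes were also read relative to that median. They then came to 0.78 for Pdgfa, 1.46 for Pdgfb, 1.72 for Pdgfd, 0.72 for Pdgfra, 1.40 for Pdgfrb and -0.31 for Pdgfc. Only Pdgfc lay below the median of all genes. The 5 called genes had positive log2 fold changes under both scalings, but fewer of them were called, 3 after median scaling and 1 after quantile normalization, where 5.56% and 3.05% of all genes were called higher.

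The order of the levels differed between the groups. In the CL group Pdgfc was highest (3.33 to 3.82 FPKM), and it overlapped with Pdgfra (3.17 to 3.61 FPKM). Pdgfrb (2.55 to 3.15 FPKM) and Pdgfa (0.48 to 0.58 FPKM) came next, each without overlap with the gene before it. Pdgfb and Pdgfd were lowest and overlapped with each other.

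In the FL group Pdgfrb was highest (6.0 to 13.13 FPKM), followed by Pdgfra (5.44 to 9.58 FPKM), and the ranges of both receptors overlapped. Pdgfc (3.06 to 4.13 FPKM) lay below both receptors and above the other ligands without overlap. Pdgfa, Pdgfd and Pdgfb followed with overlapping ranges, so no order among them exceeded the spread between rats.

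Pdgfc thus made up most of the ligand mRNA of the CL group. Its share of the summed ligand FPKM was 79.5%, 80.8% and 77.3% in CL5, CL6 and CL7 and 60.8%, 52.8% and 43.6% in FL2, FL5 and FL12. The share was lower in every FL rat than in any CL rat while the FPKM of Pdgfc itself overlapped between the groups. The share of Pdgfb went from 4.95% ± 2.42 to 14.1% ± 1.56, that of Pdgfd from 3.71% ± 1.40 to 14.9% ± 6.75 and that of Pdgfa from 12.2% ± 1.55 to 18.6% ± 3.17 (SD, n = 3 rats each).

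**Figure D2:**
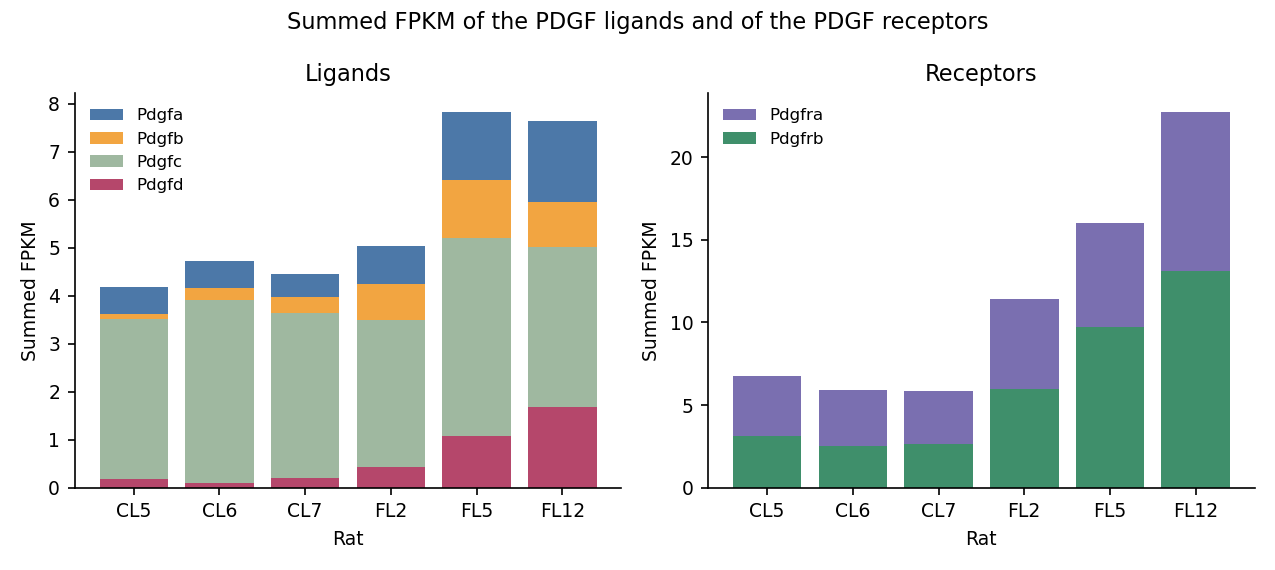
Summed FPKM of the 4 PDGF ligands (left) and of both PDGF receptors (right) in each rat, as stacked bars from 0 with 1 colour for each gene. The ligand sum is 4.19 to 4.73 FPKM in the CL rats and 5.03 to 7.82 FPKM in the FL rats, and the receptor sum is 5.83 to 6.76 FPKM and 11.4 to 22.7 FPKM.

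Summed over the ligands, the level was 4.19 FPKM in CL5, 4.73 in CL6 and 4.45 in CL7, against 5.03 in FL2, 7.82 in FL5 and 7.64 in FL12. Summed over the receptors, it was 6.76, 5.94 and 5.83 FPKM in the CL rats and 11.4, 16 and 22.7 FPKM in the FL rats, in the same order. Both sums were higher in every FL rat than in any CL rat, and the ratio of the group means was 1.53 for the ligands and 2.71 for the receptors. Within a rat, the log2 ratio of summed ligands to summed receptors was -0.46 ± 0.19 in the CL group and -1.25 ± 0.28 in the FL group, a difference of -0.79 that reached the smallest p an exact permutation test of 3 against 3 rats can give (two-sided, p = 0.10).

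The balance between the receptors also differed. The log2 ratio of Pdgfrb to Pdgfra was -0.19, -0.40 and -0.24 in CL5, CL6 and CL7 and 0.14, 0.61 and 0.45 in FL2, FL5 and FL12. Pdgfra was the more abundant receptor mRNA in every CL rat and Pdgfrb in every FL rat. The difference of 0.68 again reached the smallest possible p of the exact permutation test (two-sided, p = 0.10), which in a design of 3 against 3 cannot fall under 0.05. This ratio and the ratio of the sums were chosen after their values had been seen, and limma gives no test of them.

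Whether a ligand and its receptor moved by the same amount was read from the log2 ratio of ligand to receptor within each rat, for the 5 pairs known to bind, namely Pdgfa with Pdgfra, Pdgfc with Pdgfra, Pdgfb with Pdgfra, Pdgfb with Pdgfrb and Pdgfd with Pdgfrb. A factor that scales a whole rat cancels in such a ratio except for the added 0.1, which weighs on the ligands with low values. No correlation over the 6 rats was computed, because they form 2 groups of 3.

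For Pdgfa and Pdgfra, the log2 ratio was -2.45, -2.40 and -2.50 in CL5, CL6 and CL7 and -2.64, -2.08 and -2.44 in FL2, FL5 and FL12. The FL rats lay on both sides of the CL rats, FL2 below and FL5 above them. The difference between the groups was 0.06 (exact permutation test, two-sided, p = 0.80, adjusted over the 5 pairs 0.90). Both genes were called higher, and their order among the FL rats was the same, with FL2 lowest and FL12 highest. The sign of this difference turned to -0.30 with a pseudocount of 1 and to -0.21 with quantile normalization.

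For Pdgfd and Pdgfrb, the log2 ratio was -3.54, -3.73 and -3.15 in CL5, CL6 and CL7 and -3.50, -3.05 and -2.89 in FL2, FL5 and FL12. The groups overlapped, FL2 lying among the CL rats. The difference was 0.33 (exact permutation test, two-sided, p = 0.20, adjusted 0.33). Here too both genes were called higher, with FL2 lowest and FL12 highest among the FL rats. The difference followed the pseudocount in both directions, being -0.65 with a pseudocount of 1 and 0.78 with a pseudocount of 0.01, and it was 0.04 with quantile normalization.

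Pdgfb was set against each of its receptors. Its log2 ratio to Pdgfrb was -4.02, -2.92 and -2.72 in CL5, CL6 and CL7 and -2.86, -2.93 and -3.67 in FL2, FL5 and FL12, with CL5 and FL12 low and the other rats close together. The difference was 0.07 (exact permutation test, two-sided, p = 0.90, adjusted 0.90), and its sign turned with a pseudocount of 1 (-0.76), with quantile normalization (-0.23), without CL5 (-0.33), without FL2 (-0.08) and without FL5 (-0.05). Its log2 ratio to Pdgfra went from -3.50 ± 0.65 in the CL rats to -2.75 ± 0.45 in the FL rats (SD over 3 rats each), a difference of 0.74 (exact permutation test, two-sided, p = 0.20, adjusted 0.33) that became -0.18 with a pseudocount of 1, 1.14 with a pseudocount of 0.01 and 0.39 without CL5. Pdgfb was called higher together with both receptors, but its order among the FL rats was another one, with FL5 above FL12.

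At the pseudocount of 0.1, Pdgfc and Pdgfra were the pair whose ratio did not overlap between the groups. The log2 ratio was -0.11, 0.17 and 0.11 in CL5, CL6 and CL7 and -0.81, -0.60 and -1.5 in FL2, FL5 and FL12. Ligand and receptor were near parity in the CL rats, and Pdgfra exceeded Pdgfc in every FL rat, most in FL12. The difference was -1.03, at the smallest p the exact permutation test allows (two-sided, p = 0.10, adjusted over the 5 pairs 0.33). With a pseudocount of 1, other pairs were also lower in the FL group at that p. They were Pdgfa to Pdgfra (-0.30), Pdgfb to Pdgfrb (-0.76) and Pdgfd to Pdgfrb (-0.65).

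**Figure D3:**
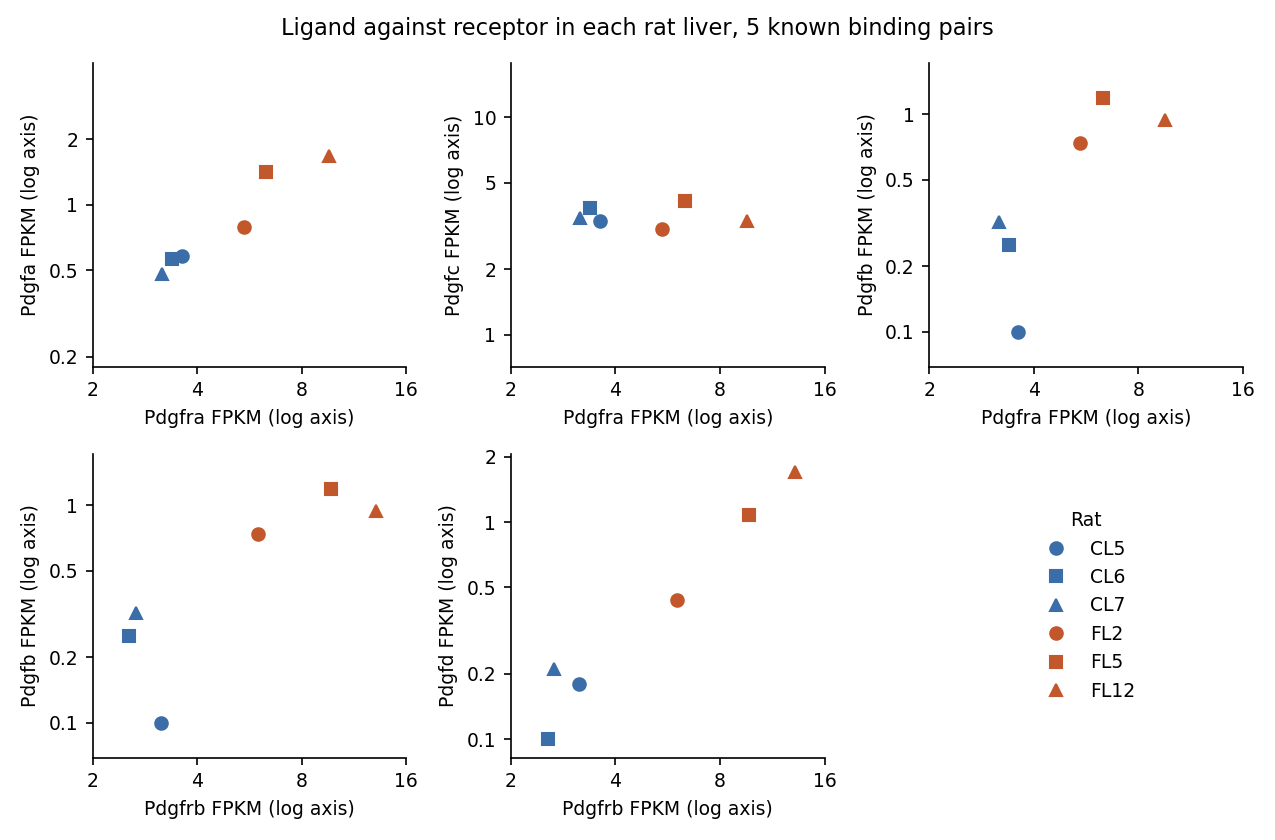
FPKM of the ligand (vertical) against FPKM of the receptor (horizontal) in each rat for the 5 binding pairs, both on log axes, with 1 symbol for each rat and colour for the group. In the panels of Pdgfa with Pdgfra and of Pdgfd with Pdgfrb the order FL2, FL5, FL12 is the same on both axes, whereas Pdgfc stays between 3.06 and 4.13 FPKM while Pdgfra goes from 3.17 to 9.58 FPKM.

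Likeness of profiles was also measured as the root mean square difference of log2(FPKM + 0.1) over the 6 rats, after each gene was centred on its own mean, so that a smaller value means more alike. Of the 15 pairs that 6 genes can form, Pdgfa with Pdgfra had the smallest value (0.168), followed by Pdgfd with Pdgfrb (0.298). Pdgfa with Pdgfrb (0.324) and Pdgfra with Pdgfrb (0.371) came next, neither of them a binding pair in the list of 5. Pdgfb with Pdgfrb had 0.483, Pdgfc with Pdgfra 0.586 and Pdgfb with Pdgfra 0.588. These values are descriptions without a test.

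FL2 had the lowest value among the FL rats in all 6 genes. On the scale of log2(FPKM + 0.1) FL2 exceeded the CL mean by 0.48 in Pdgfa, 0.67 in Pdgfra, 1.06 in Pdgfd, 1.09 in Pdgfrb and 1.44 in Pdgfb, and it lay 0.20 below that mean in Pdgfc (-0.20). In FPKM without the added 0.1, FL2 had 2.69 times the CL mean in Pdgfd and 2.15 times in Pdgfrb, so that the order of these 2 genes depends on the pseudocount. FL12 was the highest in Pdgfa, Pdgfd, Pdgfra and Pdgfrb, and FL5 in Pdgfb and Pdgfc.

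Genes whose mean reached 1 FPKM were ranked by the same measure against each called member. Nearest to Pdgfa were Lama2 (a laminin chain of basement membranes, 0.072), Fmnl3 (0.083), Tspan9 (0.086), Hmcn1 (0.091) and Wls (0.096). Nearest to Pdgfra were Kank2 (0.081), Nt5c2 (0.084), Cyp2u1 (0.087), Nrp1 (0.091) and the unnamed gene AABR07054362.1 (0.106). Nrp1, a co-receptor of PDGF and VEGF ligands, stood at 2.96 FPKM in CL5, 2.72 in CL6 and 2.87 in CL7, against 4.52 in FL2, 5.37 in FL5 and 7.02 in FL12.

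Nearest to Pdgfrb were Fam171b (0.093), Ahnak (0.098), Mrvi1 (0.101), Nrg1 (0.112) and Pf4 (0.120). Nearest to Pdgfb were genes known from myeloid and other blood cells, C5ar1 (the receptor of complement C5a, 0.096) and Cd53 (a tetraspanin of leukocytes, 0.131), and then Ifitm2 (0.134), Dram1 (0.175) and Hist1h2ail1 (0.182). C5ar1 was 1.32 FPKM in CL5, 2.01 in CL6 and 2.82 in CL7, against 5.62 in FL2, 8.17 in FL5 and 6.14 in FL12, with CL5 lowest and FL5 highest as in Pdgfb. Nearest to Pdgfd was the unnamed gene AABR07047256.1 (0.092), followed at a distance by Antxr1 (0.217), Fam180a (0.225), Lpl (lipoprotein lipase, 0.231) and Fbn1 (fibrillin of elastic microfibrils, 0.241). Neither receptor was among the 5 nearest genes of another member, whereas Pdgfa, Pdgfb and Pdgfd lay under the limit of 1 FPKM and were not ranked. Each list was taken from the same 6 rats, so that genes with a large difference between the groups lie near one another in it.

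Among genes that process, bind or assist PDGF, 5 of 10 tested were called higher and 0 lower, where 9.29% of all genes were called higher, with a median log2 fold change of 1.03. At an adjusted p under 0.05 without the limit on the fold change, 6 were higher, 60.0% against 16.9% of all genes. The additional gene was Nrp1 with a log2 fold change of 0.94. St14 encodes matriptase and Plat tissue plasminogen activator, proteases able to cut the CUB domain from ligands D and C. Plat was 0.46 FPKM in CL5, 1.38 in CL6 and 0.78 in CL7, against 1.89 in FL2, 3.57 in FL5 and 3.69 in FL12, a log2 fold change of 1.75 (standard error 0.39, limma's adjusted p = 0.0215). St14 had a log2 fold change of 1.57 (standard error 0.33, limma's adjusted p = 0.0167), and Plau, the urokinase that also cuts ligand D, one of 1.12 (standard error 0.24, limma's adjusted p = 0.0198). Under 14 alternatives the call was lost 6 times for Plat and 7 times each for St14 and Plau.

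A2m, a plasma protease inhibitor that binds PDGF, had 0.56 FPKM in CL5, 0.59 in CL6 and 0.59 in CL7, against 10.52 in FL2, 2.46 in FL5 and 3.86 in FL12. Here FL2, the lowest FL rat for the members, was the highest. The log2 fold change of A2m was 2.81 (standard error 0.46, limma's adjusted p = 0.00789). Sparc, a matrix protein that binds the B chain, went from 36.3 ± 1.58 to 109 ± 41.8 FPKM (SD, n = 3 rats each), a log2 fold change of 1.49 (limma's adjusted p = 0.0131), and its call was lost under 3 of 14 alternatives (limma's adjusted p of up to 0.0588). Furin, the convertase that cuts the A and B chains inside the cell, had 58.71 to 70.09 FPKM in the CL rats and 59.74 to 67.43 FPKM in the FL rats, with a log2 fold change of -0.03 (limma's adjusted p = 0.873).

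Downstream of the receptors, 2 of 35 adaptor and kinase genes tested were called higher and 0 lower, 5.71% against 9.29% of all genes, with a median log2 fold change of 0.21. They were Pik3cd, the delta catalytic subunit of PI3-kinase known from leukocytes, with a log2 fold change of 1.56 (limma's adjusted p = 0.00979), and Src, a kinase that docks to the receptors, with 1.07 (limma's adjusted p = 0.00868), a call lost under 4 of 14 alternatives. Without the limit on the fold change 8 genes of this list were higher, 22.9% against 16.9% of all genes. Of 13 genes whose products attenuate receptor signalling, such as phosphatases, Cbl proteins and Sproutys, 0 were called in either direction by limma, and 3 (Ptpn1, Cbl and Spry2) were higher at an adjusted p under 0.05 without the limit on the fold change, 23.1% against the same 16.9%. The median of that list was 0.07.

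The nearest relatives of the family were read in the same way. Of the 7 VEGF ligand and receptor genes tested, Vegfd, a lymphatic growth factor listed under its older symbol Figf, was called higher, with a log2 fold change of 2.65 (standard error 0.42, limma's adjusted p = 0.00730), which is 14.3% of the list against 9.29% of all genes, and the median of the list was 0.19. Of the 3 other class III receptor tyrosine kinases, Csf1r, the receptor of the macrophage growth factor, was called higher (1 of 3, where 9.29% of all genes were). Its level was 8.93 FPKM in CL5, 8.26 in CL6 and 8.10 in CL7, against 18.02 in FL2, 22.45 in FL5 and 15.76 in FL12, a log2 fold change of 1.13 (standard error 0.15, limma's adjusted p = 0.00439). The call was lost under 3 of 14 alternatives, where the log2 fold change was 0.91 to 0.99.

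Markers of cells in which PDGF genes are known to be expressed were read beside the members, and their part in the members' differences was not tested. The counts of called markers below stand against 9.29% called higher among all genes. Of 9 myofibroblast and fibroblast markers tested, 5 were called higher, with a median log2 fold change of 1.5, and 1 of these calls, that of Col5a1, was lost in limma under 9 of 14 alternatives (adjusted p of up to 0.102). Their summed level was 71.7 FPKM in CL5, 82.4 in CL6 and 73.6 in CL7, against 189 in FL2, 539 in FL5 and 484 in FL12, most of it from Col3a1. Of 9 stellate cell markers tested, Des and Rgs5 were called higher and Ecm1 was called lower. Their summed level overlapped between the groups, with 108, 118 and 101 FPKM in the CL rats and 106, 120 and 91.8 FPKM in the FL rats. Ecm1 made up 45.7% to 56.3% of it in the CL rats and 16.1% to 27.5% in the FL rats. Without Ecm1 the sum was 58.5 FPKM in CL5, 51.4 in CL6 and 48.2 in CL7, against 77.1 in FL2, 96.7 in FL5 and 77.1 in FL12.

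Of 10 macrophage markers tested, 6 were called higher, with a median log2 fold change of 1.87, and their summed level was 102 FPKM in CL5, 106 in CL6 and 104 in CL7, against 304 in FL2, 360 in FL5 and 241 in FL12. Clec4f was the most abundant of them in every CL rat, Marco in FL2 and Gpnmb in FL5 and FL12. Of 7 platelet and megakaryocyte markers listed, 4 were under 0.1 FPKM in every rat (Ppbp, Gp9, Gp1ba and Gp6). Of the 2 that could be tested, Pf4 was called higher with a log2 fold change of 1.73 (limma's adjusted p = 0.0101). The summed level of the platelet list was 4.15, 2.67 and 2.89 FPKM in the CL rats and 5.18, 6.88 and 7.76 FPKM in the FL rats, with Itga2b the most abundant in the CL rats and FL2 and Pf4 in FL5 and FL12.

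Of 9 endothelial markers tested, Vwf was called higher (11.1%), a call lost in limma under 10 of 14 alternatives with an adjusted p of up to 0.0989. At an adjusted p under 0.05 without the limit on the fold change, 4 were higher, 44.4% against 16.9% of all genes. The summed level was 68.2 FPKM in CL5, 72.3 in CL6 and 64.4 in CL7, against 92.9 in FL2, 90.0 in FL5 and 100 in FL12, with Lyve1 the most abundant in every rat but FL5. Of 8 portal fibroblast and mesothelial markers, Eln and Entpd2 were called higher, and the summed level went from 9.77 ± 1.66 to 24.3 ± 10.6 FPKM (SD, n = 3 rats each) between the CL and FL groups. Without Eln the sum overlapped, with 6.85, 5.83 and 9.01 FPKM in the CL rats and 4.69, 7.04 and 8.35 FPKM in the FL rats. The call of Entpd2 was lost in limma under 9 of 13 alternatives, with an adjusted p of up to 0.297. Of 5 smooth muscle and pericyte markers tested, Mcam was called higher (not so under 2 of 14 alternatives), with sums of 9.76 ± 0.542 and 13.6 ± 1.98 FPKM and Smtn the most abundant. Hepatocyte markers, which show that the tissue was liver, summed to 49441 ± 1379 FPKM (CL) and 42221 ± 847 FPKM (FL), most of it from Alb. Every FL rat (41560 to 43176 FPKM) lay below every CL rat (48417 to 51010 FPKM). Without Alb the sum overlapped, with 17618, 16986 and 16905 FPKM in the CL rats and 17411, 18124 and 16718 FPKM in the FL rats. Of the 10 markers, 2 (Apoa1 and Tf) were higher in every FL rat than in any CL rat, and 3 (Alb, Ttr and Hnf4a) were lower. Over all genes tested, 35.7% were higher in this way and 4.78% lower. Limma called 0 of the 10 in either direction, but its standard error for Alb was 0.98 on the log2 scale although the rats of a group lay close together (32272 ± 1010 and 24803 ± 572 FPKM without overlap), so the absence of calls says little about the most abundant genes.

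When each member was divided by the summed stellate cell list of the same rat, the log2 ratio was higher in every FL rat than in any CL rat for the 5 called members, with differences of 1.12 for Pdgfa, 1.80 for Pdgfb, 2.06 for Pdgfd, 1.06 for Pdgfra and 1.73 for Pdgfrb. Each was at the smallest p of the exact permutation test (two-sided, p = 0.10, adjusted over the 12 marker ratios 0.15). For Pdgfc the difference was 0.03 (exact permutation test, two-sided, p = 0.90). These differences depend on Ecm1, which was itself called lower. With the list without Ecm1, an alternative chosen after seeing the data, the groups overlapped for Pdgfa (0.41) and Pdgfra (0.35), the difference was 1.09 for Pdgfb, 1.35 for Pdgfd and 1.02 for Pdgfrb without overlap, and Pdgfc turned to -0.68, with every FL rat below every CL rat. Divided by the myofibroblast and fibroblast list, no member was higher in the FL group. The difference was -2.29 for Pdgfc, -1.27 for Pdgfra and -1.20 for Pdgfa, without overlap (exact permutation test, two-sided, p = 0.10 each, adjusted 0.15). Without Col3a1 in the list it was -2.07, -1.05 and -0.99, and the groups overlapped for Pdgfra.

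For the remaining members the ratio to the myofibroblast and fibroblast list overlapped between the groups. The difference was -0.59 for Pdgfrb (exact permutation test, two-sided, p = 0.20), -0.52 for Pdgfb (p = 0.30) and -0.26 for Pdgfd (p = 0.50), and these values depended on the settings. With a pseudocount of 1 they were -0.83 for Pdgfrb, -1.59 for Pdgfb and -1.47 for Pdgfd, and with quantile normalization -0.87 for Pdgfrb and -0.83 for Pdgfd (exact permutation test, two-sided, p = 0.10 each), whereas with a pseudocount of 0.01 Pdgfd had 0.23. In the main setting the log2 ratio of Pdgfrb was -4.47, -4.96 and -4.74 in CL5, CL6 and CL7. It was -4.95, -5.78 and -5.19 in FL2, FL5 and FL12, FL2 lying within the range of the CL rats.

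The 6 genes lie on 6 chromosomes, namely 12 (Pdgfa, ENSRNOG00000001312), 7 (Pdgfb, ENSRNOG00000017197), 2 (Pdgfc, ENSRNOG00000010695), 8 (Pdgfd, ENSRNOG00000029148), 14 (Pdgfra, ENSRNOG00000002244) and 18 (Pdgfrb, ENSRNOG00000018461), so none shares a chromosome with another. Promoter sequences from RefSeq (build GRCr8, from 250 bases before to 50 bases after the start of a gene) matched 5 of the 6 members, all but Pdgfrb. They were searched on both strands for the letters CCAAT, for the GC box GGGCGG that Sp1 binds and for the TATA motif TATAAA, and no match overlapped with that of another motif. The GC box was found 1 time in each of the 3 ligands called higher, 187 bases before the start of Pdgfa, 207 bases before that of Pdgfb and 114 bases before that of Pdgfd. It was found neither in Pdgfc nor in Pdgfra, a receptor called higher. Among all 33469 promoters 33.1% held it. CCAAT, which 37.5% of all promoters held, was found 1 time in Pdgfra, 221 bases before the start, and TATAAA, which 14.2% held, in no promoter of the 5. A match describes the letters only. The 250 bases before the start are shown for the ligands and the receptor so that the called and the uncalled ligands can be compared, 5′ to 3′ on the strand of the gene, with the motifs in capitals. All 4 matches lie on the other strand, so that the GC box is shown as CCGCCC and the CCAAT motif as ATTGG.
Pdgfa, chr12:20759116-20759365, + strand: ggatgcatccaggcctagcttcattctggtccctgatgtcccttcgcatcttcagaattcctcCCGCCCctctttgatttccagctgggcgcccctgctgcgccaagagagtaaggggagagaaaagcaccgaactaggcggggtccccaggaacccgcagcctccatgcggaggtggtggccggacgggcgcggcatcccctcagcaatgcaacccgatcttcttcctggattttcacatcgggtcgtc
Pdgfb, chr7:113438344-113438593, - strand: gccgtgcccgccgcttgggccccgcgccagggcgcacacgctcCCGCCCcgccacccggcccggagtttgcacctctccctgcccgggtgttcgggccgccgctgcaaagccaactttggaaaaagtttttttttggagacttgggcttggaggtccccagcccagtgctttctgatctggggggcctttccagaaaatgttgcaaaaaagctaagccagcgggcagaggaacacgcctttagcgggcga
Pdgfc, chr2:168614918-168615167, + strand: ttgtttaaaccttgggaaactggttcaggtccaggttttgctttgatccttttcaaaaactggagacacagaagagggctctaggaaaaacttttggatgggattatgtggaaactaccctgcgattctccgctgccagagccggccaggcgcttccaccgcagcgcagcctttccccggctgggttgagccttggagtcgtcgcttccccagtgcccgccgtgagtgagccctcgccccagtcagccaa
Pdgfd, chr8:11773258-11773507, + strand: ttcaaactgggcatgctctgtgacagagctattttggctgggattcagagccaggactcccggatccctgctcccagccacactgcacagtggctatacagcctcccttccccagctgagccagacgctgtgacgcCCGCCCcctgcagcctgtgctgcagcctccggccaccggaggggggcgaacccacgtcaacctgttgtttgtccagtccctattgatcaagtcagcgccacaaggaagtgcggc
Pdgfra, chr14:33408517-33408766, - strand: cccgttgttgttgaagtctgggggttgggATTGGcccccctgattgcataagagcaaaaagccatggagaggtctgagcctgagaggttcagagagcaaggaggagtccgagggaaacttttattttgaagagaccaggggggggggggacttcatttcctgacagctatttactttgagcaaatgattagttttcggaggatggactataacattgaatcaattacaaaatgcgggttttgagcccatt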

How the data were processed

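RNA of whole liver was sequenced with 1 library for each of 3 CL and 3 FL rats, and rats were assigned to groups by their labels. Per the paper's methods, reads were trimmed (FASTX-Toolkit) and aligned (TopHat2), and the authors deposited FPKM for each gene from reads with a unique position, with 2 decimals and without a stated scaling between rats. The genome is given as GRCH38, although the identifiers in the table are those of Ensembl for the rat. Another 2 columns of the table match no sample of the series and were not used. The authors' calls came from edgeR on read counts, which do not apply to FPKM, so log2(FPKM + 0.1) was compared with limma (prior variance following the mean, no covariates) over genes whose mean reached 0.1 FPKM, with Benjamini-Hochberg adjustment and the limits of the study (adjusted p under 0.05, at least 2-fold). Standard errors are limma's moderated ones. Log2 ratios within a rat were compared by two-sided exact permutation tests over the 20 assignments of rats, whose smallest p is 0.10, with Benjamini-Hochberg adjustment over 5 pairs or 12 marker ratios.

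The members and lists were chosen with earlier results of these data known, and the study had picked Pdgfd and A2m from these rats. The genes named were the members, up to 4 called genes of each pathway list with the largest change in a direction, the 5 genes most like each called member, and the most abundant genes of each marker list. Plau, Furin and the genes named as called in the marker and attenuator lists were named after their values had been seen. Where 2 rows shared a symbol the row with the higher mean was taken, and Vegfd was found under an older symbol; both rules were set after the table had been seen. Crkl, Pecam1 and Gp1bb were not found under their symbols. Sums of lists include genes under the filter. No pair of rats shared more than 2.87% of values above 0, so no library was counted 2 times. Read totals being unused, precision is given as the spread between rats. Alternatives were pseudocounts of 1 and 0.01, no filter or a mean of at least 1 FPKM, median scaling (over 9201 genes above 1 FPKM in every rat), quantile normalization of the genes tested, limma with a robust prior, limma without trend, no fold limit, leaving out each rat, and 2 marker lists without their most abundant gene. The procedure was tested on simulated data, and the outcome is not reported here. The limma fits ran under R 4.3.3 (limma 3.58.1), and ratios, sums and figures under Python 3.11.15 (pandas 2.3.3; numpy 2.4.6; matplotlib 3.10.9).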

Additional observations from a re-analysis of the deposited data

How the results depend on the processing

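The fold changes of the members, of called list genes and of the nearest genes, the ratios and 3 counts of called genes were recomputed under the alternatives, and the cause of a change was not tested unless stated. Likeness, shares, orders of levels, medians, other list counts and further uncalled genes such as Furin and Acta2 were not recomputed. Of 81 values of the 6 members' log2 fold changes, 50 kept direction and call, 28 kept the direction but lost the call and 3 changed sign, all 3 in Pdgfc. The number of members called higher, 5, became 1 with a pseudocount of 1 (3.11% of all genes called higher) or with quantile normalization (3.05%), 3 with median scaling (5.56%), 2 without a filter (4.31%), and 2 with a mean of at least 1 FPKM (8.11%), where 3 members were no longer tested; leaving out 1 rat gave 2 to 5 (4.95% to 12.3% of all genes), against 9.29% in the main fit. With a pseudocount of 1, log2 fold changes fell by construction, to 0.56 for Pdgfa, 0.68 for Pdgfb, 0.79 for Pdgfd and 0.86 for Pdgfra, and to 1.43 for Pdgfrb, then the largest.

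Without a filter, limma's adjusted p was 0.0915 for Pdgfa (log2 fold change 1.07), 0.0699 for Pdgfd (2.01) and 0.0566 for Pdgfra (1.01), where more genes entered the adjustment. Median scaling gave 0.87 for Pdgfa, 0.79 for Pdgfra and -0.24 for Pdgfc, and quantile normalization -0.37 for Pdgfc, 0.50 for Pdgfa, 1.16 for Pdgfb, 1.43 for Pdgfd and 0.70 for Pdgfra. Without trend, Pdgfa kept 1.07 at an adjusted p of 0.0501 in limma. Over all alternatives limma's adjusted p ran from 0.00893 to 0.238 for Pdgfa, 0.0141 to 0.0700 for Pdgfb, 0.00597 to 0.0802 for Pdgfd, 0.00985 to 0.0653 for Pdgfra and 0.125 to 0.969 for Pdgfc.

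Leaving out 1 rat gave log2 fold changes of 0.87 to 1.37 for Pdgfa, 1.44 to 1.98 for Pdgfb, 1.62 to 2.49 for Pdgfd, 0.78 to 1.18 for Pdgfra, 1.43 to 1.99 for Pdgfrb and -0.14 to 0.07 for Pdgfc, which was above 0 without CL6 (0.04), without FL2 (0.07) and without FL12 (0.01). Of 50 values of the pair ratios, 40 kept their sign. With a pseudocount of 1, which pulls low ligands towards each other, the sign turned for Pdgfa to Pdgfra (-0.30), Pdgfb to Pdgfra (-0.18), Pdgfb to Pdgfrb (-0.76) and Pdgfd to Pdgfrb (-0.65). Quantile normalization turned Pdgfa to Pdgfra (-0.21) and Pdgfb to Pdgfrb (-0.23) and brought Pdgfd to Pdgfrb to 0.04. Leaving out 1 rat gave -0.09 (without FL5) to 0.19 for Pdgfa to Pdgfra and -0.33 (without CL5) to 0.33 for Pdgfb to Pdgfrb, with -0.08 without FL2 and -0.05 without FL5. A pseudocount of 0.01 raised Pdgfb to Pdgfra to 1.14, Pdgfd to Pdgfrb to 0.78 and Pdgfb to Pdgfrb to 0.45. Leaving out 1 rat gave 0.39 to 1.01 for Pdgfb to Pdgfra and 0.20 to 0.50 for Pdgfd to Pdgfrb. Pdgfc to Pdgfra stayed between -1.21 and -0.76 when a rat was left out.

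Of 132 values of the marker ratios, 127 kept their sign. The exceptions were Pdgfc to the stellate cell list with quantile normalization (-0.15), without CL5 (-0.00) and without FL12 (-0.04; up to 0.13 without FL2) and with the list without Ecm1 (-0.68), and Pdgfd to the myofibroblast and fibroblast list with a pseudocount of 0.01 (0.23). Of adaptors and kinases, 2 were called higher, which became 1 with a pseudocount of 1, median scaling or quantile normalization, 8 without a fold limit, and 1 (without FL5) to 3 when a rat was left out. Over all genes, the 1381 called higher became 453 with quantile normalization, 462 with a pseudocount of 1, 824 with median scaling, 846 without a filter, 854 among genes whose mean reached 1 FPKM and 2518 without a fold limit, and 740 (without CL7) to 1831 (without FL2) when a rat was left out, with 745 without FL5. The alternatives for genes outside the members, for the count over all genes, for the ratios of receptor beta to alpha and of the sums, median scaling of the pairs and marker lists without their most abundant gene were chosen after seeing the data. None of these genes, nor the ratios of receptors and sums, changed sign. No paired analysis was possible because the groups share only rat number 5, which names different animals. Pdgfb and Pdgfd have CL values of 0.10 to 0.32 FPKM, so that their log2 values depend on the pseudocount.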

Other observations

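Pdgfrl, which encodes a secreted protein with similarity to the outer part of the PDGF receptors, carries a symbol outside the 6 members and was looked at after the members had been seen. It was listed at 0.12 FPKM in CL5, 0.09 in CL6 and 0.09 in CL7, against 0.25 in FL2, 0.68 in FL5 and 0.38 in FL12. FL5 was the highest rat, and all FL rats stood above all CL rats. The log2 fold change was 1.35 (standard error 0.40, limma's adjusted p = 0.0494), and the adjusted p ranged from 0.0262 to 0.219 over 13 alternatives, 10 of which lost the call, those without CL5 (0.101), CL6 (0.117), CL7 (0.144), FL5 (0.158) and FL12 (0.102) among them.

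Markers of 2 more cell types were read, with 16.7% of each list called higher against 9.29% of all genes. Of 6 cholangiocyte markers, Spp1 was called higher (not so under 2 of 14 alternatives), and their summed level, most of it from Spp1 in the FL rats, was 5.75 FPKM in CL5, 10.6 in CL6 and 6.32 in CL7, against 12.7 in FL2, 68.7 in FL5 and 42.4 in FL12. Without Spp1 the groups overlapped, with 5.38, 7.75 and 5.58 FPKM in the CL rats and 5.38, 8.06 and 11.3 FPKM in the FL rats. Of 6 lymphocyte markers tested, Cd4 was called higher, and their summed level was 12, 9.89 and 10.7 FPKM in the CL rats and 22.1, 29.5 and 23.3 FPKM in the FL rats, most of it from Cd4. Without Cd4 the groups overlapped, with 2.12, 1.62 and 2.43 FPKM in the CL rats and 3.95, 5.61 and 1.94 FPKM in the FL rats. In both lists, as in the myofibroblast and fibroblast list, FL5 had the highest sum, whereas FL12 had the highest summed level of the PDGF receptors.

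Among the myofibroblast and fibroblast markers, Col1a2 was listed at 0.01 to 0.18 FPKM although Col1a1 reached 101.22 FPKM in FL5, and whether its gene model is complete was not tested, so its FPKM may not be comparable with that of other genes. Acta2, the smooth muscle actin of myofibroblasts, was 3.85 FPKM in CL5, 2.62 in CL6 and 2.68 in CL7, against 3.87 in FL2, 17.32 in FL5 and 9.59 in FL12. FL2 was thus level with CL5 in Acta2, while it had 2.15 times the CL mean in Pdgfrb. Acta2 was not called (log2 fold change 1.5, standard error 0.47, limma's adjusted p = 0.0609). These genes were picked after their values had been seen.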
